A study of Mus musculus with 9 samples.

Results

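The Keap1-Nrf2 regulators described here are 10 genes, taken by symbol from a table of 18049 mouse genes: Nfe2l2, Nfe2l1, Bach1, Mafg, Maff, Mafk, Keap1, Cul3, Sqstm1 and Osgin1. All 10 had a row in the table and all 10 passed the filter on low values, which asked for 1 FPKM or more in no fewer than 3 libraries out of 9. FPKM counts fragments relative to transcript length and library size and is a level per length. Levels of different genes can therefore be set side by side. The libraries come from bone marrow-derived macrophages of C57BL/6 mice aged 8 weeks, cultured in RPMI medium. They fall into 3 groups of 3, exposed for 6 h to 1 µM 15d-PGJ2 (a cyclopentenone prostaglandin), to 1 µM 15d-PGJ2-PC, or to medium alone as control. PC is not spelled out in the labels, so nothing is said of its structure. Nor do the labels tell whether libraries of a group are separate cultures or mice. The p-values below thus refer to the variation among these libraries alone, part or all of which could be technical.

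In the textbook account, the adaptor Keap1 joins the transcription factor Nrf2 (gene Nfe2l2) to a Cul3 ubiquitin ligase, and Nrf2 is degraded as fast as it is made. Electrophiles such as cyclopentenone prostaglandins modify cysteines of Keap1, Nrf2 protein accumulates, pairs with a small Maf protein and binds antioxidant response elements (AREs) beside genes of heme, glutathione and thioredoxin metabolism. Bach1 pairs with the same small Mafs and represses the same elements until heme displaces it. Nrf1 here means the product of Nfe2l1, a relative of Nrf2 that drives proteasome genes, and not nuclear respiratory factor 1. In macrophages the system is known for controlling heme oxygenase and for restraining inflammatory genes.

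RefSeq promoter windows of build GRCm38.p6, 250 bases before to 50 after a transcription start, were found for all 10 genes (16 windows). They were searched on both strands for the ARE core TGACNNNGC. Of the 10 genes 4 had a match, beside 17.2% of the 9022 tested genes with a window, and those 4 are Nfe2l2 and the 3 small Maf genes. The stretches are shown because the small Mafs are partners of Nrf2 that rose in these data, while Nfe2l2 did not pass the test. Each is written 5′ to 3′ on the strand that carries the match, with the matched core in capitals and up to 10 bases to either side.
Nfe2l2, chr2:75704885-75704913, minus strand: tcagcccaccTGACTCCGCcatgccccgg
Mafg, chr11:120633751-120633779, plus strand: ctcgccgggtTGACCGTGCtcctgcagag
Maff, chr15:79346499-79346527, plus strand: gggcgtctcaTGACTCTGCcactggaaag
Mafk, chr5:139791513-139791535, minus strand: gtacTGACACCGCttccgggatc

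The cores lie at bases -240 to -232 before the start of Nfe2l2, -222 to -214 of Mafg, -112 to -104 of Maff (the most upstream of its 3 windows) and -13 to -5 of Mafk. The Mafg and Mafk cores are on the strand opposite to the gene. No core overlapped a match to the other motifs searched. Mafg also held the heat shock element form TTCNNGAA at -56 to -49, present in 8.42% of tested genes, and the E-box CACGTG at -41 to -36, present in 12.3%. The form GAANNTTC matched no window of the 10 genes (7.06% of tested genes). E-boxes were also found in the Mafk window (-208 to -203) and in the second Maff window (-191 to -186). The only windows of Mafg and Osgin1 lie inside the gene spans given below, and each overlaps 2 annotated exons of its gene. Sequence before the outer 5′ ends of these 2 genes was not searched. Osgin1 had no ARE core in its window and held an AP-1 site, TGANTCA (6.2% of tested genes), at -97 to -91, shown because AP-1 sites and AREs share bases.
Osgin1, chr8:119437040-119437066, plus strand: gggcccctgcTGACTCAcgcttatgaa
The windows of Nfe2l1, Bach1, Keap1, Cul3 and Sqstm1 held none of the 5 motifs, which says only that these letters are not in these windows. The 250 bases before the Maff start are printed whole, with the core in capitals, since Maff rose by the largest factor of the 10 with 15d-PGJ2.
Maff, chr15:79346371-79346620, plus strand: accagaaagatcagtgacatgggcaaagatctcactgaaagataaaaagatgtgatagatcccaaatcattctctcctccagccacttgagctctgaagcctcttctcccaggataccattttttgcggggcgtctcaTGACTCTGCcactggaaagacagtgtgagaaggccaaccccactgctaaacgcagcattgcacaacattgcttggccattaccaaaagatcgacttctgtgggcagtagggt

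Depth and purity are given once. Steps between low values gave a median of 5.23 M reads per library over 75 genes (quartiles 4.16 to 5.4), and each library had 10876 to 11026 genes at 1 FPKM or more. At that depth Maff rests on about 15 reads per control library and Sqstm1 on about 12000. Genes above 0 FPKM separated the groups, with 15165 to 15277 in controls, 14459 to 14523 with 15d-PGJ2-PC and 14690 to 14738 with 15d-PGJ2. All 8 macrophage markers were present, with a summed level of 6917 to 7172 FPKM in controls, 6208 to 6364 with 15d-PGJ2-PC and 5328 to 5674 with 15d-PGJ2. The summed levels of keratinocyte, stromal, erythroid, neutrophil and dendritic markers were higher in controls. The 5 keratinocyte markers summed to 20.1 to 24.6 FPKM there, against 0.51 to 1.37 with 15d-PGJ2-PC and 0.68 to 1.03 with 15d-PGJ2, where Krt5, Krt14, Krt1 and Lor were listed at 0. The 6 stromal markers summed to 36.2 to 43.0 FPKM in controls and 7.63 to 10.4 over the treated libraries. The 4 erythroid markers summed to 19.6 to 31.8 FPKM in controls and 0 to 0.91 over the treated libraries, with Hbb-bs and Alas2 at 0 with 15d-PGJ2-PC and Hbb-bt at 0 with 15d-PGJ2. The 5 neutrophil markers summed to 26.1 to 30.6, 19.8 to 24.6 and 12.8 to 16.0 FPKM in controls, 15d-PGJ2-PC and 15d-PGJ2, and the 4 dendritic markers to 32.4 to 33.5, 25.8 to 28.1 and 21.6 to 24.1 FPKM. Against its list's sum, the neutrophil marker Mpo was lowest in controls (0.09, 1.99 and 1.69 FPKM in the same order). The 3 B cell markers stayed at or below 0.83 FPKM in all libraries, and the 1 measured T cell marker of 3 at or below 0.58. These lists move with the groups compared below, and their part in the results was not tested.

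With 15d-PGJ2, 9 of the 10 regulators rose against control and none fell. Only Nfe2l2, the gene of Nrf2 itself, did not pass. Over all 11309 tested genes, 22.2% rose and 25.0% fell, 47.2% in either direction (limma adjusted p under 0.05). With 15d-PGJ2-PC, 8 of 10 rose and none fell, beside 13.8% of tested genes that rose and 14.1% that fell (27.8% in either direction), and Nfe2l2 and Cul3 did not pass. The median log2 difference of the 10 genes was 0.52 and 0.40, beside -0.016 and -0.0038 over all tested genes. Both contrasts use the same 3 control libraries. The libraries of treated and control groups did not overlap for 9 and 8 of the 10, against 55.1% and 41.8% of tested genes. The rises fall into a large set, Sqstm1, Osgin1, Maff and Mafg, and a smaller set, Bach1, Mafk, Keap1, Cul3 and Nfe2l1. In bulk RNA a change in the number of cells of a type and a change in RNA per cell cannot be told apart.

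**Figure D1:**
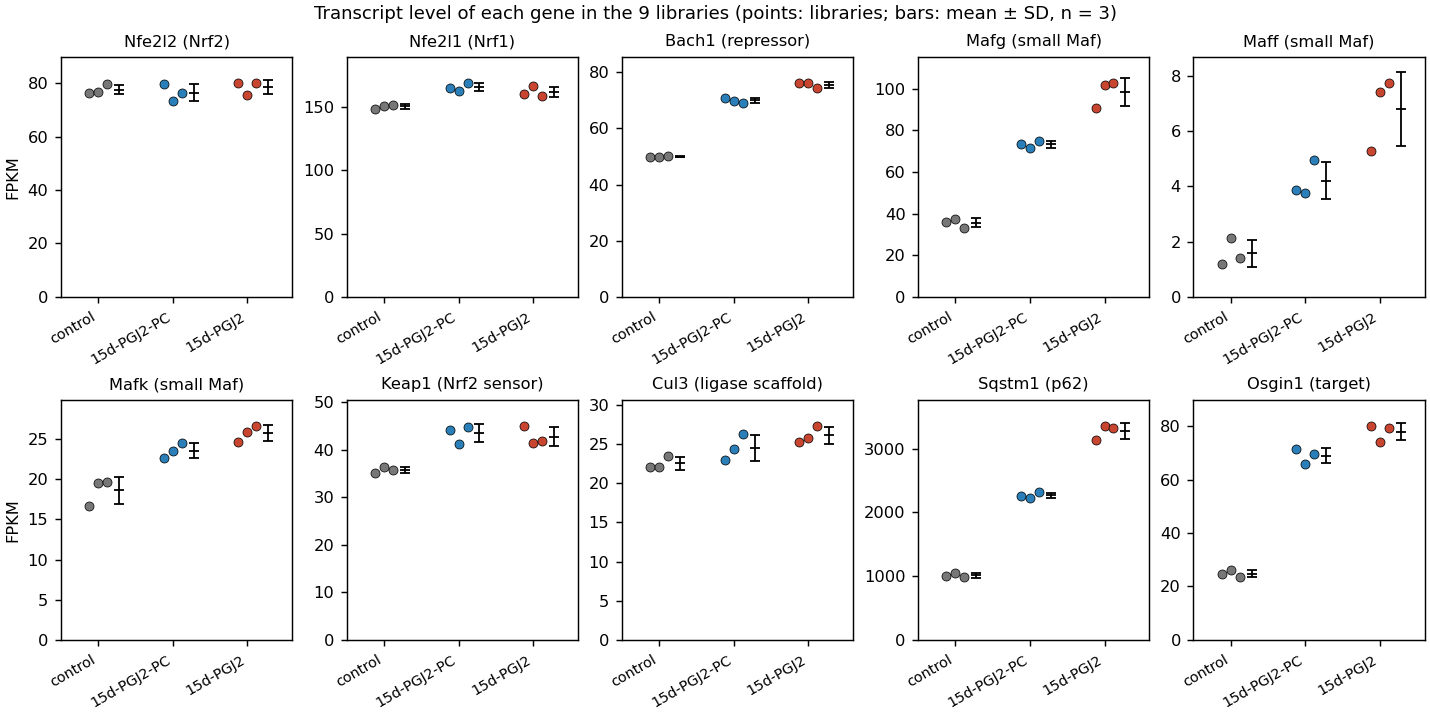
FPKM of each of the 10 genes (vertical axis, from 0, scaled per gene) in the 3 control, 3 15d-PGJ2-PC and 3 15d-PGJ2 libraries; points are libraries and bars are mean ± SD. Nfe2l2 stays between 73.3 and 80.2 FPKM in all 9 libraries. For every other gene except Cul3, the control libraries lie below every treated library.

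Nfe2l2 (Entrez 18024, chromosome 2, 75675513 to 75704663 in GRCm38) encodes Nrf2. Its level was 76.3, 76.7 and 79.5 FPKM in the controls, 79.7, 73.3 and 76.4 with 15d-PGJ2-PC and 80.0, 75.7 and 80.2 with 15d-PGJ2. The 3 groups overlap fully. The log2 difference from control was 0.02 with 15d-PGJ2 (95% interval -0.08 to 0.12, limma adjusted p = 0.74) and -0.02 with 15d-PGJ2-PC (-0.12 to 0.08, adjusted p = 0.78). The intervals allow a change of at most 0.12 on the log2 scale either way.

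Nfe2l1 (Entrez 18023, chromosome 11, 96817414 to 96829968) encodes the membrane-bound relative Nrf1 and was the most abundant of the DNA-binding members in every group. Its level was 149, 151 and 152 FPKM in controls, 165, 163 and 169 with 15d-PGJ2-PC and 160, 166 and 159 with 15d-PGJ2. Every treated library was above every control, by a small margin. The rise was 0.10 on the log2 scale with 15d-PGJ2 (SE 0.03, limma adjusted p = 0.0229) and 0.14 with 15d-PGJ2-PC (SE 0.03, adjusted p = 0.00874). The 15d-PGJ2 call was lost without control replicate 1 (0.0693), control replicate 2 (0.056) or 15d-PGJ2 replicate 2 (0.0908), and both calls were lost without an intensity trend (0.0975 and 0.0565). The ranges over all alternatives were 0.0117 to 0.0975 and 0.00758 to 0.0565.

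Bach1 (Entrez 12013, chromosome 16, 87698954 to 87733346) encodes the repressor that competes with Nrf2 for small Mafs. It was at 49.78, 49.95 and 49.99 FPKM in controls, 70.8, 69.8 and 69.2 with 15d-PGJ2-PC and 76.3, 76.0 and 74.4 with 15d-PGJ2. The 3 groups did not overlap, and the controls differed among themselves by less than 1 FPKM. Bach1 rose 1.51-fold with 15d-PGJ2 (log2 difference 0.59, SE 0.03, limma adjusted p = 1.73e-07) and 1.40-fold with 15d-PGJ2-PC (0.48, SE 0.03, adjusted p = 3.41e-06). Folds are ratios of mean FPKM, and log2 differences are on the log2(FPKM + 1) scale, which understates the change of low genes.

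Because Bach1 rose and Nfe2l2 did not pass, the ratio of Nfe2l2 to Bach1 transcripts was 1.55 ± 0.03 in controls, 1.09 ± 0.04 with 15d-PGJ2-PC and 1.04 ± 0.04 with 15d-PGJ2 (SD, n = 3). Every control ratio (1.53 to 1.59) lay above every treated ratio (0.995 to 1.13). The ratio of Nfe2l2 to Keap1 was 2.17 ± 0.06, 1.76 ± 0.05 and 1.84 ± 0.07 in the same order, again with controls above all treated libraries. These are ratios of transcripts, and protein was not measured.

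Mafg (Entrez 17134, chromosome 11, 120625117 to 120634955) encodes a small Maf, a short bZIP protein that lacks an activation domain and works as a partner. Its level was 36.2, 37.4 and 33.3 FPKM in controls, 73.3, 71.7 and 74.7 with 15d-PGJ2-PC and 90.8, 102 and 103 with 15d-PGJ2. The 3 groups did not overlap. Mafg rose 2.76-fold with 15d-PGJ2 (log2 difference 1.44, SE 0.06, limma adjusted p = 1.34e-08) and 2.06-fold with 15d-PGJ2-PC (1.02, SE 0.06, adjusted p = 7.74e-07). A RefSeq gene model overlaps Mafg, as another does Osgin1, and the counting is not stated to use strand, so reads of such overlaps cannot be told apart.

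Maff (Entrez 17133, chromosome 15, 79346621 to 79359078), a stress-inducible small Maf, was the least abundant of the 10 in every group. It was at 1.18, 2.14 and 1.39 FPKM in controls, 3.87, 3.76 and 4.97 with 15d-PGJ2-PC and 5.28, 7.41 and 7.75 with 15d-PGJ2. The 3 groups again did not overlap, though the 15d-PGJ2 libraries spread over 2.47 FPKM. The ratio of means was 4.34 with 15d-PGJ2 and 2.68 with 15d-PGJ2-PC. Maff rose by 1.61 on the log2 scale (SE 0.17, limma adjusted p = 1.97e-05) and 1.03 (SE 0.17, adjusted p = 0.00112). With a pseudocount of 0.1 these were 2.07 and 1.39.

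Mafk (Entrez 17135, chromosome 5, 139791536 to 139802653), the third small Maf, was at 16.7, 19.5 and 19.6 FPKM in controls, 22.6, 23.5 and 24.5 with 15d-PGJ2-PC and 24.6, 25.8 and 26.6 with 15d-PGJ2. All treated libraries lay above the controls. Mafk rose 1.38-fold with 15d-PGJ2 (log2 difference 0.45, SE 0.07, limma adjusted p = 0.000307) and 1.27-fold with 15d-PGJ2-PC (0.33, SE 0.07, adjusted p = 0.00479).

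Summed over the 3 genes, small Maf transcripts were at 55.8 ± 2.82 FPKM in controls, 101.0 ± 2.78 with 15d-PGJ2-PC and 131.0 ± 8.96 with 15d-PGJ2. The composition of the sum also differed. Mafg made up 63.9 ± 2.85% of it in controls, 72.6 ± 0.87% with 15d-PGJ2-PC and 75.2 ± 0.20% with 15d-PGJ2, and Mafk 33.4 ± 2.63%, 23.3 ± 0.57% and 19.7 ± 0.67%. Maff contributed 2.79 ± 0.75%, 4.15 ± 0.54% and 5.17 ± 0.69%. Their possible partners Nfe2l1, Nfe2l2 and Bach1, the cap'n'collar (CNC) factors, together were at 278.0 ± 3.38, 312 ± 5.67 and 316 ± 2.44 FPKM. The ratio of that sum to the small Maf sum was 4.99 ± 0.26 in controls, 3.09 ± 0.07 with 15d-PGJ2-PC and 2.42 ± 0.18 with 15d-PGJ2. No library of one group overlapped another in that ratio. No test is given for sums over chosen genes.

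**Figure D2:**
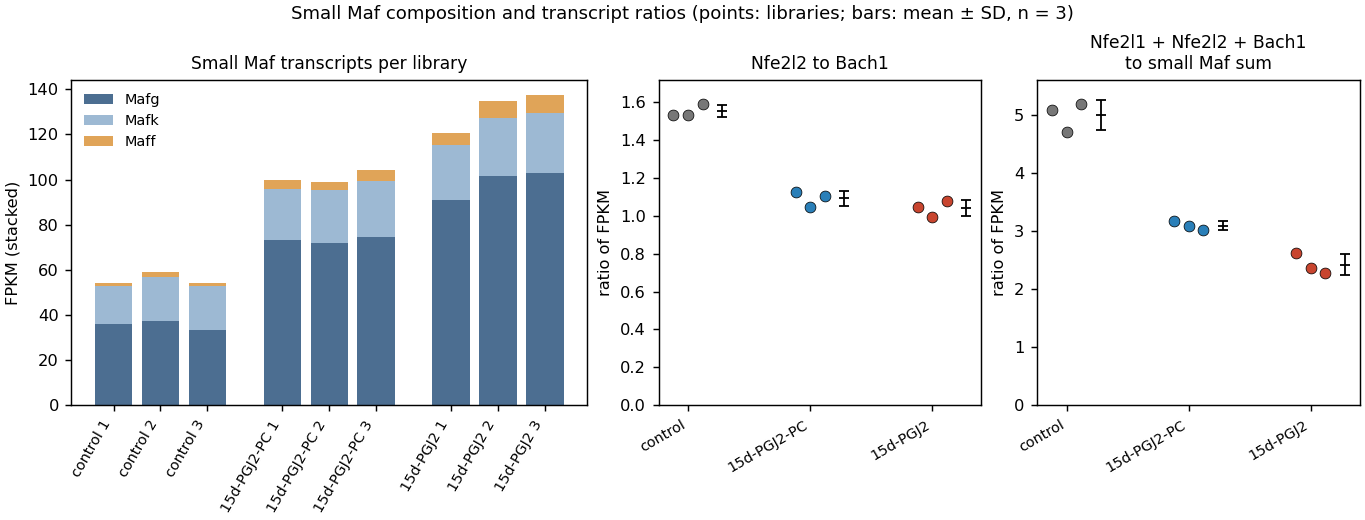
Left, stacked FPKM of Mafg, Mafk and Maff in each library; middle and right, ratios of FPKM per library (points) with mean ± SD for Nfe2l2 to Bach1 and for the CNC factors to the small Maf sum. Stacks grow from about 55.8 FPKM in controls to 131.0 with 15d-PGJ2, and both ratios are highest in the controls.

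Keap1 (Entrez 50868, chromosome 9, 21229730 to 21239332) encodes the cysteine-rich sensor that presents Nrf2 to the ligase. It was at 35.0, 36.3 and 35.8 FPKM in controls, 44.3, 41.3 and 44.9 with 15d-PGJ2-PC and 45.1, 41.5 and 41.8 with 15d-PGJ2. The treated groups overlap each other and lie above all controls. Keap1 rose 1.20-fold with 15d-PGJ2 (log2 difference 0.25, SE 0.05, limma adjusted p = 0.00175) and 1.22-fold with 15d-PGJ2-PC (0.28, SE 0.05, adjusted p = 0.00186).

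Cul3 (Entrez 26554, chromosome 1, 80264923 to 80340690), the scaffold of the ligase, was at 22.0, 22.1 and 23.5 FPKM in controls, 22.9, 24.3 and 26.3 with 15d-PGJ2-PC and 25.3, 25.8 and 27.3 with 15d-PGJ2. The 15d-PGJ2-PC libraries overlap both other groups. Cul3 rose by 0.20 on the log2 scale with 15d-PGJ2 (SE 0.06, limma adjusted p = 0.0184). That call was lost without control replicate 1 (0.058), control replicate 2 (0.0582) or 15d-PGJ2 replicate 3 (0.0705); the alternatives gave 0.00934 to 0.0705. With 15d-PGJ2-PC the difference was 0.11 (95% interval -0.02 to 0.25, adjusted p = 0.205).

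Sqstm1 (Entrez 18412, chromosome 11, 50200152 to 50210820) encodes p62, an autophagy receptor that binds Keap1 and carries it to autophagosomes, and is itself a known Nrf2 target. It was by far the most abundant member, at 1002, 1048 and 982 FPKM in controls, 2254, 2229 and 2316 with 15d-PGJ2-PC and 3133, 3357 and 3329 with 15d-PGJ2. The 3 groups were widely apart. Sqstm1 rose 3.24-fold with 15d-PGJ2 (log2 difference 1.69, SE 0.03, limma adjusted p = 2.01e-10) and 2.24-fold with 15d-PGJ2-PC (1.16, SE 0.03, adjusted p = 9.39e-09). By mean level it was in place 41 of 18049 genes in controls, 14 with 15d-PGJ2-PC and 12 with 15d-PGJ2. The ratio of Sqstm1 to Keap1 transcripts was 28.3 ± 0.75, 52.1 ± 1.59 and 76.7 ± 6.27 in the same order.

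Osgin1 (Entrez 71839, chromosome 8, 119425882 to 119446257), a growth inhibitor gene known as an Nrf2 target, was at 24.8, 26.2 and 23.4 FPKM in controls, 71.5, 65.8 and 69.6 with 15d-PGJ2-PC and 80.1, 74.2 and 79.4 with 15d-PGJ2. The 3 groups did not overlap, and the treated groups lay close together. Osgin1 rose 3.14-fold with 15d-PGJ2 (log2 difference 1.61, SE 0.05, limma adjusted p = 4.66e-09) and 2.78-fold with 15d-PGJ2-PC (1.44, SE 0.05, adjusted p = 4.93e-08). Its rise with 15d-PGJ2-PC was in place 46 from the largest among 11309 tested genes, and its rise with 15d-PGJ2 in place 110.

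The order of the levels changed between groups. In controls it ran Sqstm1, Nfe2l1, Nfe2l2, Bach1, Keap1, Mafg, Osgin1, Cul3, Mafk and Maff, with overlapping libraries only between Keap1 and Mafg and between Osgin1 and Cul3. With 15d-PGJ2 it ran Sqstm1, Nfe2l1, Mafg, Nfe2l2, Osgin1, Bach1, Keap1, Cul3, Mafk and Maff. There the neighbours Nfe2l2 and Osgin1, Osgin1 and Bach1, and Cul3 and Mafk overlapped. Mafg thus lay above Nfe2l2 in every 15d-PGJ2 library and below it in every control library. With 15d-PGJ2-PC the order was Sqstm1, Nfe2l1, Nfe2l2, Mafg, Bach1, Osgin1, Keap1, Cul3, Mafk and Maff, with overlap between Nfe2l2 and Mafg, Bach1 and Osgin1, and Cul3 and Mafk.

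The compounds were compared directly at the same dose and time, 1 pair in all. Against 15d-PGJ2, 5 of the 10 genes were lower with 15d-PGJ2-PC and none was higher, beside 8.30% lower and 12.3% higher of all tested genes (20.6% in either direction), and the libraries of 6 did not overlap (37.3% of tested genes). Sqstm1 was lower by a log2 difference of -0.53 (95% interval -0.61 to -0.45, limma adjusted p = 5.19e-06) and Mafg by -0.42 (-0.55 to -0.29, adjusted p = 0.000506). Both calls held under every alternative run, though quantile normalization brought the difference of Sqstm1 to -0.31. Maff was lower by -0.58 (-0.96 to -0.20, adjusted p = 0.0358), Bach1 by -0.11 (-0.19 to -0.03, adjusted p = 0.0449) and Osgin1 by -0.17 (-0.29 to -0.05, adjusted p = 0.0436).

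The last 3 calls depend on the libraries and the fit. Maff was lost without 15d-PGJ2-PC replicate 1 or 2 (0.103 and 0.111), without 15d-PGJ2 replicate 2 or 3 (0.114 and 0.122), with a pseudocount of 0.1 (0.0598), without the filter (0.0886) and without a trend (0.05), in a range of 0.0148 to 0.122. Osgin1 was lost without control replicate 1 (0.0573), without 15d-PGJ2-PC replicate 1, 2 or 3 (0.0534, 0.147 and 0.0829), without 15d-PGJ2 replicate 1 or 3 (0.122 and 0.126) and without the filter (0.0661) or a trend (0.0876), in a range of 0.0151 to 0.147. Bach1 was lost without control replicate 1 or 2 (0.0591 and 0.0662) and without any 1 library of either compound (0.0753 to 0.122). It was also lost without a trend (0.114) and with only the 2 groups compared (0.0644), in a range of 0.00999 to 0.122. The number of lower genes was 2 to 5 when any 1 library was left out.

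For the other 5 genes the difference between compounds did not pass. It was -0.04 for Nfe2l2 (95% interval -0.14 to 0.06, limma adjusted p = 0.577), 0.04 for Nfe2l1 (-0.04 to 0.11, adjusted p = 0.499) and 0.02 for Keap1 (-0.09 to 0.13, adjusted p = 0.794). Cul3 differed by -0.09 (-0.23 to 0.05, adjusted p = 0.344) and Mafk by -0.12 (-0.27 to 0.03, adjusted p = 0.248), the latter with groups that did not overlap. A p that misses the threshold does not show that the compounds act alike on these genes. The intervals exclude differences beyond 0.14 on the log2 scale for Nfe2l2, Nfe2l1 and Keap1, and beyond 0.27 for Cul3 and Mafk.

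**Figure D3:**
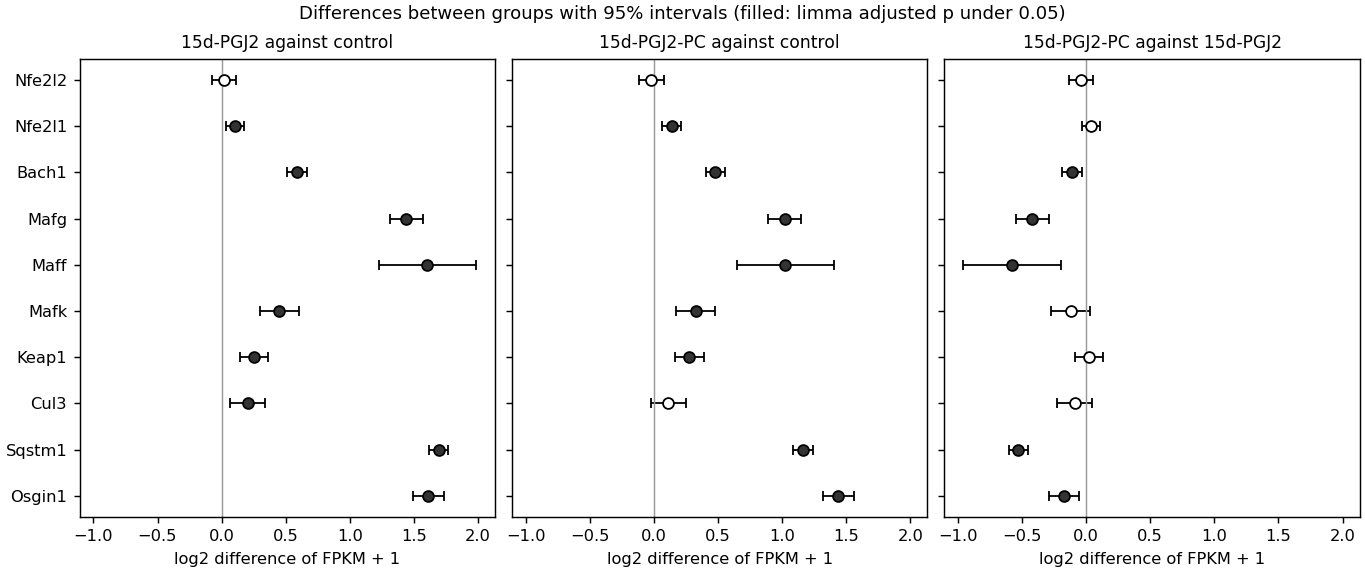
Log2 differences of FPKM + 1 between groups (horizontal axis, shared by the panels) for the 10 genes, with 95% intervals from limma; filled points passed an adjusted p of 0.05. In the first 2 panels all filled points lie right of 0, and in the direct comparison of the compounds the largest called differences are those of Maff, Sqstm1 and Mafg.

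The other genes of the pathway came from lists drawn up by function, and genes that 2 lists hold are counted in both. The counts below stand beside the shares over all tested genes. With 15d-PGJ2 22.2% rose and 25.0% fell, and with 15d-PGJ2-PC 13.8% rose and 14.1% fell. Between compounds 8.30% were lower and 12.3% higher with 15d-PGJ2-PC. Of 32 known Nrf2 targets 31 were tested, and 27 rose, 1 fell and 3 did not pass with 15d-PGJ2 (median log2 difference 1.31), against 26, 1 and 4 with 15d-PGJ2-PC (median 0.83). Hmox1, heme oxygenase 1, was at 332 ± 8.11, 2781 ± 54.2 and 6540.1 ± 124 FPKM in controls, 15d-PGJ2-PC and 15d-PGJ2. Gclm, a subunit of glutamate-cysteine ligase, and Srxn1, sulfiredoxin, reached 270 and 276 FPKM with 15d-PGJ2-PC and 486 and 448 with 15d-PGJ2, from 62.8 and 61.6. Cbr1, a carbonyl reductase, was at 26.9, 24.8 and 27.4 FPKM (adjusted p = 0.813 with 15d-PGJ2). Ugdh, named after its value was seen, fell by 0.75 and by 0.42 on the log2 scale. Between compounds 26 targets were lower with 15d-PGJ2-PC and 1, Ugdh, was higher.

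All 35 proteasome genes listed as Nrf1 targets were tested. With 15d-PGJ2, 34 rose and 1 fell (median 0.93), and with 15d-PGJ2-PC 32 rose and 3 did not pass (median 0.68), namely Psmd10 and, named after their values were seen, Psma6 and Psmd9. Nfe2l1 itself rose by 0.10 and 0.14. The core subunit gene Psma5 rose from 70.4 to 150.1 FPKM with 15d-PGJ2-PC and 180 with 15d-PGJ2, and Psma7 and the regulatory gene Psmd11 from 106 and 39.4 to 197 and 84.7, and to 239 and 102. The chaperone gene Pomp had the largest p among these genes with 15d-PGJ2 but rose in both contrasts (0.21 and 0.26). Psmd10, named after its value was seen, fell by 0.34 with 15d-PGJ2. Genes that release Nrf1 from the endoplasmic reticulum and trim it rose in 4 of 7 cases with either compound. Among them Nploc4, a cofactor of the segregase Vcp, rose from 26.1 to 51.8 and 59.0 FPKM, Vcp from 181 to 263 and 297, and Ufd1l from 16.8 to 29.4 and 34.1. Ngly1, which removes glycans from Nrf1, rose by log2 differences of 0.32 and 0.35, and with 15d-PGJ2 the ER ubiquitin ligase gene Syvn1 fell by 0.19, both named after their values were seen. The protease gene Ddi2 was at 33.1, 31.2 and 31.7 FPKM (adjusted p = 0.413 with 15d-PGJ2).

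Maf, a large relative of the small Mafs that encodes the macrophage factor c-Maf, fell from 174 ± 5.29 FPKM to 105 ± 3.92 with 15d-PGJ2-PC and 70.7 ± 5.56 with 15d-PGJ2 (log2 differences -0.73 and -1.29, adjusted p = 4.7e-06 and 2.1e-08). Of 4 other CNC and Maf factors it was 1 of 2 that were tested. The other, the erythroid factor gene Nfe2, did not pass (1.07, 0.92 and 0.48 FPKM, adjusted p = 0.0591 with 15d-PGJ2). By group means, Maf was above the small Maf sum of 55.8 FPKM in controls and below its 131.0 FPKM with 15d-PGJ2.

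Other ubiquitin ligase and degradation genes were mixed. Of 14, 7 rose and 3 fell with 15d-PGJ2, beside 22.2% and 25.0% of all tested genes. With 15d-PGJ2-PC 5 rose and 1 fell, beside 13.8% and 14.1%. The number that fell with 15d-PGJ2 is near the share over all genes. Cul1, a cullin of another Nrf2 ligase, rose from 25.4 to 34.2 and 41.1 FPKM, and Cops5, which deconjugates cullins from Nedd8, from 34.1 to 46.3 and 51.9. Trim21, which ubiquitinates p62 and is interferon-induced, fell from 29.5 to 18.1 and 11.6 FPKM (adjusted p = 5.27e-05 and 1.34e-07). Nedd8 (-0.16) and Syvn1 (-0.19), named after their values were seen, were the other genes that fell with 15d-PGJ2. With 15d-PGJ2-PC the genes that rose besides Cul1 and Cops5 were Gsk3a, Gsk3b and Fbxo22 (0.15, 0.35 and 0.28), also named after their values were seen. Fbxw11 was at 33.8, 31.5 and 34.1 FPKM (adjusted p = 0.875 with 15d-PGJ2).

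Among 8 genes for proteins that bind Keap1 or Nrf2 regulators, 2 rose and 3 fell with 15d-PGJ2, beside 22.2% and 25.0% of all tested genes, and 2 rose with 15d-PGJ2-PC, beside 13.8%. The number that rose with 15d-PGJ2 is near the share over all genes. Prdx1, a peroxiredoxin that is also on the target list, rose from 962 to 1835 and 2391 FPKM. Pgam5, a mitochondrial phosphatase gene that rose by 0.21 and 0.20, and the kinase gene Ikbkb, which fell by 0.18 with 15d-PGJ2, were named after their values were seen. The cell cycle inhibitor gene Cdkn1a fell by 0.42 and the replication gene Mcm3 by 0.36 with 15d-PGJ2, while Dpp3, a peptidase that competes for Keap1, was at 33.4, 35.1 and 33.5 FPKM (adjusted p = 0.956 with 15d-PGJ2). Of 9 coactivators and partners 5 rose and 1 fell with 15d-PGJ2, and 4 rose and 1 fell with 15d-PGJ2-PC. Atf4, a stress factor that can pair with Nrf2, rose from 190.1 to 272 and 260 FPKM. Fosl1, an AP-1 subunit, rose from 0.74 ± 0.32 to 2.02 ± 0.19 and 5.34 ± 0.77 FPKM, and the acetyltransferase gene Ep300 fell from 32.1 to 27.3 and 25.1. Crebbp (0.30 and 0.23), Jund and Jun (0.29 and 0.24 with 15d-PGJ2) were the other genes that rose, besides Rxra with 15d-PGJ2-PC, and were named after their values were seen. Smarca4 was at 31.8, 29.4 and 31.8 FPKM (adjusted p = 0.985 with 15d-PGJ2).

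**Figure D4:**
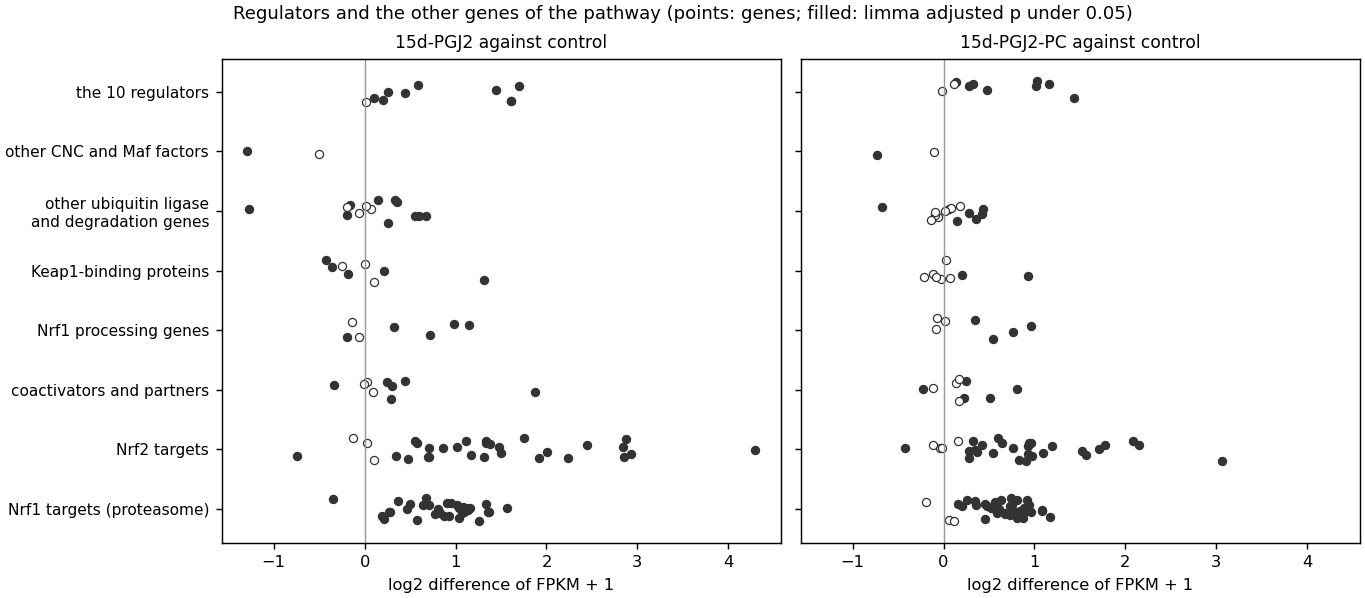
Log2 differences of FPKM + 1 from control (horizontal axis) for the tested genes of each list, 1 point per gene, filled where the limma adjusted p was under 0.05; vertical scatter within a row carries no value. Nrf2 targets and proteasome genes lie mostly right of 0 under both compounds, and the other CNC and Maf factors lie left of 0.

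For the 9 genes that passed in at least 1 contrast, the genes with the most similar profile were found by Pearson's r of log2(FPKM + 1) over the 9 libraries, among tested genes whose group means span at least 0.5 on the log2 scale. Gene models, Rik names, microRNAs, snoRNAs and pseudogenes were left out by symbol. So was any symbol that begins with a digit or with a letter and a digit, a pattern that also fits some named genes. The span was not asked of the 9 genes themselves, and Nfe2l1 (0.138), Cul3 (0.204), Keap1 (0.277) and Mafk (0.449) spanned less. The libraries form 3 groups, so a high r mainly says that the 3 group means are spaced alike on the log2 scale. It says nothing of the size of the change, and no p is given. Sqstm1 was most like Hmox1, Gclm and Ube2o, a ubiquitin-conjugating enzyme gene (r = 0.999, 0.998 and 0.998). Mafg was most like Psmb4, Zfand2a and Sqstm1 (0.998 each), Maff like Psmd6, Zfp523 and Dnajb1 (0.990, 0.988 and 0.986) and Mafk like Banp, Fmn1 and Atad2 (0.982, 0.982 and 0.978). Bach1 was most like Psmd11, Txnrd1 and Sh3d19 (0.998 each) and Osgin1 like Por, Pced1b and Sh3d19 (0.997, 0.996 and 0.995). On the log2 scale Bach1 and Osgin1 had reached most of their rise with 15d-PGJ2-PC, as had Mafg, Mafk, Sqstm1 and Maff. Sh3d19 was at 5.16, 10.8 and 12.4 FPKM in controls, 15d-PGJ2-PC and 15d-PGJ2. Keap1 was most like Fbxo9, Capn10 and Pdlim4 (0.978, 0.968 and 0.968), and Nfe2l1 like Id2, Vps37b and Mpo (0.968, 0.963 and 0.951). All 6 of those neighbours were slightly higher with 15d-PGJ2-PC than with 15d-PGJ2 in mean FPKM. Cul3 was most like Patl2, Zkscan1 and Ankrd12 (0.967, 0.946 and 0.931).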

How the data were processed

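Trizol RNA and TruSeq RNA libraries (Illumina) were used, per the labels' protocols. The authors deposited FPKM values with 2 decimals per gene and library, per the file headers, and these were used without further scaling. BWA and build mm10 come from the submitters' processing notes. For the counter and any filter the sources used here give no name. Symbols turned into dates (23) were restored from Entrez numbers. Coordinates and promoter windows are RefSeq's for GRCm38.p6, the assembly mm10 names. FPKM is not a count, so the 11309 genes that reached 1 FPKM in 3 libraries or more were tested with limma 3.58.1 (R 4.3.3) on log2(FPKM + 1), with an intensity trend, 2-sided, all 9 libraries in 1 fit, without covariates. Adjustment was Benjamini-Hochberg over all tested genes of a contrast (threshold 0.05). The fit was also run on simulated data that held far fewer changed genes than were called here. That run therefore does not bear on the calls above. The number of reads was estimated from steps between low values of genes of 1 transcript (tolerance 0.06 of a step), which gives a rough depth only.

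The members and lists were chosen with earlier results of these data known. All 10 members are named. From each list the 3 genes with the smallest p and the 1 with the largest p in the 15d-PGJ2 contrast are named, and any other gene is marked as named after its value was seen. Alternatives were 2 other pseudocounts, 2 other filters, quantile normalization, median scaling, no trend, a fit of the compared groups alone, a replicate block and leaving out each library. Small Maf proteins were not analysed here. One gene was taken out of a list and is not reported here.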

Additional observations from a re-analysis of the deposited data

How the results depend on the processing

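The 10 genes were refitted in 3 contrasts under 9 settings and with each of 9 libraries left out, 540 values. Of these 502 kept their direction and their side of the threshold, 35 lost the call and 3 changed sign, all 3 in differences that had not passed: Nfe2l2 with 15d-PGJ2-PC against control under quantile normalization (0.0094) and without 15d-PGJ2-PC replicate 2 (0.0101; -0.0500 to 0.0101 over the libraries left out), and Keap1 between compounds under quantile normalization (-0.0167). The lost calls are those of Nfe2l1, Cul3, Maff, Bach1 and Osgin1, given above except for those under the replicate block, which follow. The number of the 10 genes that rose was 7 to 9 with 15d-PGJ2 and 7 to 8 with 15d-PGJ2-PC over all settings. The number lower with 15d-PGJ2-PC than with 15d-PGJ2 was 5, and became 3 without the filter, 2 without the trend, 3 with the replicate number as a block, and 2 to 5 with 1 library left out. The cause was not tested. The labels do not say whether same-numbered libraries belong together. Between groups, the deviations of same-numbered libraries from their group means correlated at -0.043 to 0.052 across genes. For libraries of different number the range was -0.070 to 0.098. With the replicate block, Bach1 and Osgin1 lost their calls between compounds (adjusted p = 0.0712 and 0.0639), and it changed no other call on the 10 genes. The counts over all genes stayed within 1.5 times under every setting. Depth limits Maff most, with about 15 reads per control library.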

Other observations

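One gene of the list of coactivators and partners, chosen after its values were seen, separated the compounds in the opposite sense to Sqstm1 and Mafg. Its place on that list does not say that it activates Nrf2. Rxra, which encodes a retinoid receptor known to bind Nrf2, was at 25.2 FPKM in controls, 30.1 with 15d-PGJ2-PC and 25.7 with 15d-PGJ2. It passed with 15d-PGJ2-PC against control (log2 difference 0.25, limma adjusted p = 0.0044) and between compounds (0.22, adjusted p = 0.0111), and not with 15d-PGJ2 against control (0.03, adjusted p = 0.711).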
